A study of Homo sapiens with 20 samples.

Results

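The 10 genes described here regulate or mark the stem and progenitor cells of the corneal epithelium and its identity: PAX6, TP63, ABCG2, ABCB5, BMI1, NGFR, KLF5, FOXC1, SOX9 and MEIS1. They were taken from the table of counts by gene symbol, each Ensembl gene once, and all 10 were found among 60671 genes. The samples were hTCEpi cells, a human corneal epithelial line immortalized with telomerase and grown in keratinocyte medium with added calcium. For 24 h the cells were given recombinant human SPARC, a secreted matricellular glycoprotein, at 0.05, 0.5 or 5 µg/ml (SPARC 0.05, SPARC 0.5 and SPARC 5), or at 0 µg/ml (control). There were 5 samples in each of the 4 groups and 20 in all. All came from the same line, so cell lines do not vary among them. The labels do not say whether the 5 samples of a group came from separate cultures, so p-values measure only the spread between these samples, which may be technical. RNA was sequenced after removal of ribosomal RNA, and counts summed to between 31955358 and 50112286 per sample.

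The corneal epithelium is renewed from stem cells at the limbus, the rim between cornea and conjunctiva. PAX6 is the homeodomain and paired-domain factor that sets eye and corneal identity, and p63, the product of TP63, maintains the proliferative capacity of basal and limbal epithelial cells. The transporters ABCG2 and ABCB5 and the receptor NGFR are used to mark limbal stem and progenitor cells, and BMI1, a Polycomb protein, supports stem cell self-renewal.

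Levels are counts-per-million (CPM), scaled by trimmed mean of M values (TMM) factors, and a gene is said to rise or fall when the Benjamini-Hochberg adjusted p of the edgeR quasi-likelihood test was under 0.05. Of the 10 genes, 9 had enough counts to test. SOX9 and TP63 rose at SPARC 5 and NGFR fell, each against control. These 3 calls among 9 tested members stand beside 11.6% of all 22938 genes tested that changed in the same comparison, 1615 that rose and 1050 that fell. With library sizes alone as the scaling, 999 genes rose and 2191 fell, and with a correction for GC content and length 1288 rose and 1401 fell. The absolute log2 fold change at SPARC 5 had a median of 0.09 over the 9 members and 0.13 over all genes. ABCB5 had no count in any of the 20 samples. In bulk RNA, fewer cells of a type and less RNA per cell cannot be told apart.

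**Figure D1:**
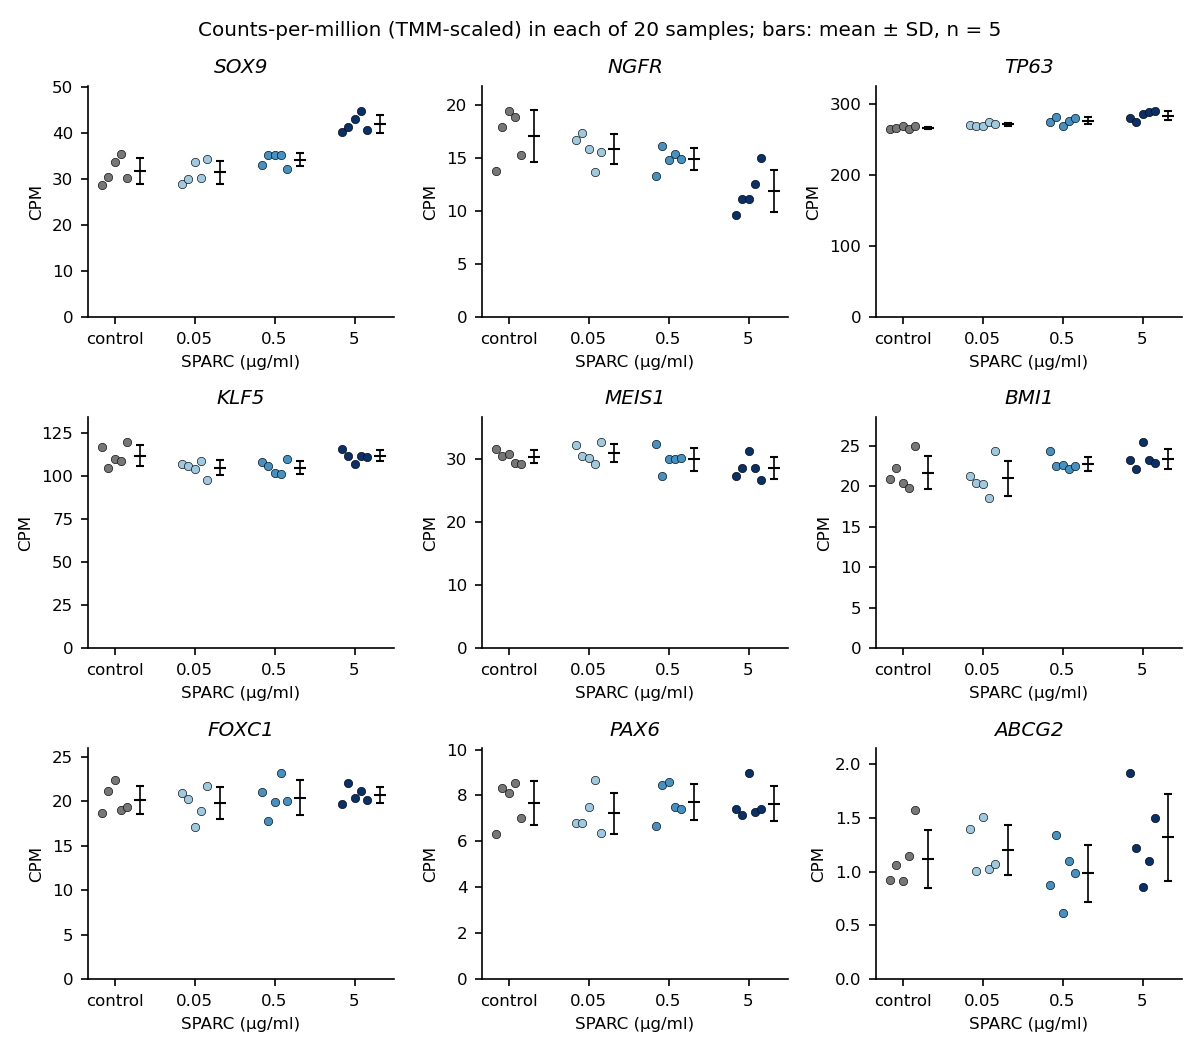
TMM-scaled counts-per-million (vertical axis, from 0) of the 9 detected genes in each of 20 samples, by SPARC dose in µg/ml (horizontal axis); points are samples and bars are the mean ± SD of 5. SOX9 at SPARC 5 lay between 40.1 and 44.8 CPM, above every other sample; NGFR at SPARC 5 lay between 9.64 and 15.0 CPM; ABCG2 spread widely within each dose.

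KRT5, a keratin of basal cells in stratified epithelia, was between 10800 and 11700 CPM in every sample. Some markers of the limbus were low: GPHA2 was at most 0.43 CPM, CXCL14 at most 1.21 CPM and KRT19 at most 1.19 CPM. Of the defining keratins of differentiated corneal epithelium, KRT12 was at most 0.111 CPM in any sample, near the floor of 3 counts, and KRT3 was low but present, between 1.28 and 2.08 CPM. Other basal and limbal markers were higher, with control means of 331 CPM for KRT14, 114 CPM for KRT15 and 150 CPM for CDH3. ITGB4 and COL17A1 had control means of 1220 and 1280 CPM. Of the other corneal markers, ALDH3A1 had 6.89 CPM and CLU 15.5 CPM in control. KRT5 thus fits the label of a stratified epithelium, and the corneal and limbal markers were mixed in level. Markers of the corneal stroma were scarce, with KERA at 0 in all 20 samples. The 10 stroma and fibroblast markers summed to between 6.33 and 10.3 CPM at SPARC 5 and between 5.56 and 8.32 CPM in control. The 6 immune markers summed to at most 2.94 CPM at SPARC 5 and at most 4.1 CPM in control, and the 5 endothelial markers to at most 1.55 and 2.01 CPM. On the second principal component of log2 CPM, which carried 6.6% of the variance, SPARC 5 replicates 2 and 5 lay apart from the other samples at 48.2 and −40.1. Leaving out both left SOX9, TP63 and NGFR called at SPARC 5.

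Per kilobase of exon, TP63 and KLF5 were the most abundant of the 10 and the transporters the least. The median over the 20 samples was 36.6 CPM per kb for TP63 and 27.8 CPM per kb for KLF5, with ranges that did not meet. KLF5, a Krüppel-like factor of epithelial proliferation and identity, stood above SOX9 at 8.65 CPM per kb. BMI1 at 5.23 and FOXC1 at 5.14 CPM per kb had ranges that overlapped almost fully. Per kilobase of exon that no other gene shares on the same strand, BMI1 was at 6.83 and FOXC1 at 5.14 CPM per kb. NGFR at 3.64 and MEIS1 at 2.75 CPM per kb came next, and their ranges overlapped too. PAX6 followed at 0.356 CPM per kb and ABCG2 at 0.215 CPM per kb, with overlapping ranges of 0.304 to 0.432 and 0.123 to 0.38 CPM per kb. Per kilobase of the longest annotated transcript, MEIS1 was at 5.87 CPM per kb, above FOXC1 at 5.14 CPM per kb, and PAX6 was at 1.02 CPM per kb, so these places depend on which transcript is made.

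**Figure D2:**
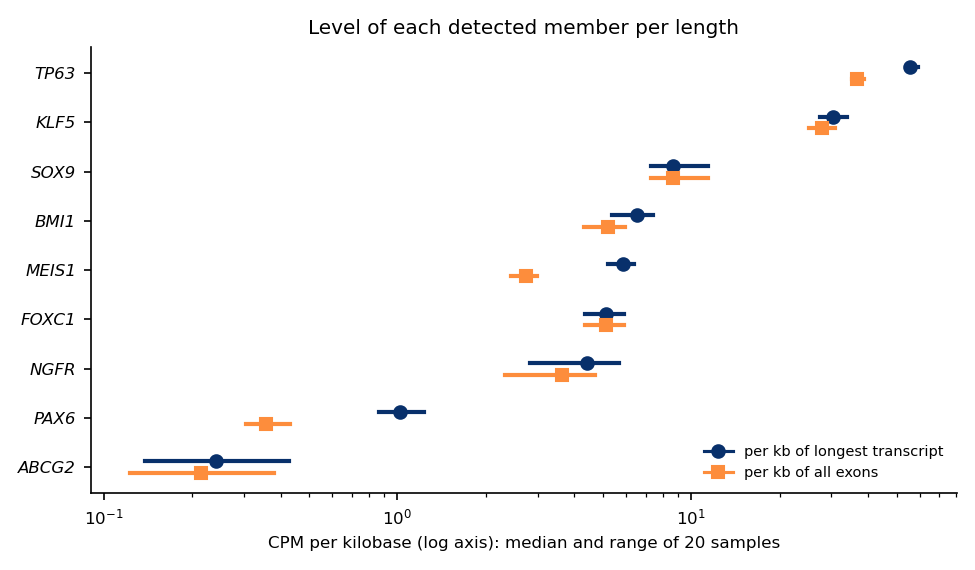
Median (marker) and range (line) over 20 samples of counts-per-million per kilobase (horizontal log axis) for the 9 detected genes (vertical axis), by longest transcript and by all exons. TP63 stood highest on both lengths (55.5 and 36.6 CPM per kb) and ABCG2 lowest (0.242 and 0.215 CPM per kb).

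SOX9, an SRY-related factor of stem and progenitor cells in several epithelia including the limbus, had the smallest adjusted p of the 9 at SPARC 5. The gene (ENSG00000125398) lies on chromosome 17, from 72121020 to 72126420 on the plus strand of GRCh38, in 3 exons. At SPARC 5 it had 40.1, 41.3, 43.1, 44.8 and 40.6 CPM, against 28.7, 30.4, 33.6, 35.5 and 30.1 CPM in control. Every SPARC 5 sample was above every sample of the other groups. SPARC 0.05 samples had 28.8, 30.0, 33.7, 30.1 and 34.3 CPM, and SPARC 0.5 samples had 33.1, 35.2, 35.1, 35.3 and 32.1 CPM, all within the control range. The mean was 42.0 ± 1.93 CPM at SPARC 5 and 31.7 ± 2.81 CPM in control (SD, n = 5 each). The log2 fold change was 0.41 ± 0.05 (SE; 95% interval 0.30 to 0.51; edgeR adjusted p = 2.45e-09), a ratio of 1.33. SOX9 at SPARC 5 was also above SPARC 0.5 by 0.30 on the log2 scale (edgeR adjusted p = 2.04e-05) and above SPARC 0.05 by 0.42 (edgeR adjusted p = 1.03e-09). The authors' deposited table gave a log2 fold change of 0.39 for SOX9 at SPARC 5 (0.28 to 0.51; adjusted p = 2.73e-07).

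The genes whose log2 CPM followed SOX9 most closely over the 20 samples were GAS6, ITGB5 and AFAP1L2. They were taken from the 15231 genes that averaged 1 CPM or more, by Pearson's r, which was 0.936 for GAS6, 0.934 for ITGB5 and 0.932 for AFAP1L2. All samples share the dose series, and after the group means were subtracted r was 0.749, 0.673 and 0.717 for the same 3 genes. The genes were picked by r over the same 20 samples, so the values within groups are not an independent check. This also holds for NGFR and TP63 below. GAS6, a secreted ligand of the TAM receptor kinases, had 116 ± 6.14 CPM at SPARC 5 and 84.0 ± 3.4 CPM in control. ITGB5, an integrin beta subunit that pairs with the alpha V subunit, had 128 ± 3.41 CPM at SPARC 5 and 102 ± 7.09 CPM in control.

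NGFR, the p75 neurotrophin receptor that marks limbal basal progenitors, fell. The gene (ENSG00000064300) lies on chromosome 17, from 49495293 to 49515017 on the plus strand. Of its exon bases, 22.3% are also exon of AC015656.1 on the opposite strand, which had between 10 and 36 counts per sample, beside 359 to 791 counts for NGFR. At SPARC 5 it had 9.64, 11.2, 11.2, 12.6 and 15.0 CPM, against 13.8, 18.0, 19.5, 18.9 and 15.3 CPM in control. At SPARC 5, 4 of 5 samples were below every control, and replicate 5, at 15.0 CPM, lay inside the control range. Means were 17.1 ± 2.45 CPM in control, 15.9 ± 1.39 CPM at SPARC 0.05, 14.9 ± 1.04 CPM at SPARC 0.5 and 11.9 ± 1.99 CPM at SPARC 5 (SD, n = 5 each). NGFR therefore ran in one direction over the doses, with ranges of neighbouring doses that overlapped. The log2 fold change at SPARC 5 was −0.52 ± 0.09 (SE; 95% interval −0.70 to −0.35; edgeR adjusted p = 5.87e-06), a ratio of 0.695 to control. Against SPARC 0.5 it was −0.33 (edgeR adjusted p = 0.0135) and against SPARC 0.05 −0.42 (edgeR adjusted p = 0.000468). The call against SPARC 0.5 was lost when SPARC 0.5 replicate 2, SPARC 5 replicate 1 or SPARC 5 replicate 3 was left out. The authors' deposited table gave −0.56 for NGFR at SPARC 5 (−0.75 to −0.37; adjusted p = 1.03e-05).

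Over the 20 samples, log2 CPM of NGFR was most like that of ASS1 (r = 0.899), SCNN1A (r = 0.889) and KRT15 (r = 0.888), and within groups r was 0.728, 0.716 and 0.694. KRT15, a keratin of limbal basal cells, had 53.1 ± 7.52 CPM at SPARC 5 and 114 ± 24.5 CPM in control (log2 fold change −1.11 ± 0.14, edgeR adjusted p = 2.98e-05). SCNN1A, the alpha subunit of the epithelial sodium channel, had 183 ± 6.83 CPM at SPARC 5 and 240.0 ± 29.9 CPM in control.

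Of the neurotrophins, their receptors and adaptors, 8 of 12 genes were tested at SPARC 5, and 3 rose, none fell and 5 did not pass. Those called were 37.5% of the 8, beside 11.6% of all genes. BDNF, a ligand of NGFR, had 2.59 ± 0.483 CPM at SPARC 5 and 1.58 ± 0.439 CPM in control (0.70 ± 0.20, edgeR adjusted p = 0.0111), and that call was lost without control replicate 2 or 4 or SPARC 5 replicate 2. MAGED1, a cytoplasmic partner of NGFR, had 67 ± 2.52 CPM at SPARC 5 and 59.9 ± 1.18 CPM in control (0.16 ± 0.04, edgeR adjusted p = 0.00138). The receptor kinases NTRK2 and NTRK3 had too few counts to test, at most 1.23 and 0.603 CPM in any sample. The median of the 8 genes was 0.09 and that of all genes −0.01 on the log2 scale.

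NGFR is also made by melanocyte-lineage and neural crest cells. SOX10, a factor of that lineage, fell at SPARC 5 from a low level. SOX10 had 0.599 ± 0.316 CPM at SPARC 5 and 1.21 ± 0.361 CPM in control (log2 fold change −1.03 ± 0.32, edgeR adjusted p = 0.0212), and its call was lost without control replicate 2 or SPARC 5 replicate 1 or 3. SOX10 was the 1 of 4 tested melanocyte markers that passed, or 25% beside 11.6% of all genes. The median log2 fold change of the 4 was −0.06, beside −0.01 for all genes. The 8 markers summed to between 9.51 and 11.9 CPM at SPARC 5 and between 10.7 and 13.5 CPM in control. The defining pigment enzymes TYR, TYRP1 and DCT were at most 0.0507, 0.0952 and 0.0959 CPM in any sample. The part of such cells in the NGFR result was not tested.

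TP63 (ENSG00000073282, chromosome 3, 189631416 to 189897279, plus strand) was high and nearly even between samples. It had 280.0, 274, 285, 288 and 290.0 CPM at SPARC 5, against 264, 266, 268, 265 and 268 CPM in control. All 5 SPARC 5 samples were above all 5 controls, by a narrow margin. So were all 5 SPARC 0.05 samples, at 269 to 274 CPM, where TP63 was not called (0.02, edgeR adjusted p = 0.857). Means were 266 ± 1.7 CPM in control, 271 ± 2.02 CPM at SPARC 0.05, 276 ± 5.18 CPM at SPARC 0.5 and 283 ± 6.55 CPM at SPARC 5 (SD, n = 5 each). The log2 fold change at SPARC 5 was 0.09 ± 0.02 (SE; 95% interval 0.04 to 0.14; edgeR adjusted p = 0.00536), a ratio of 1.06. Scaling by library sizes alone gave 0.04 (edgeR adjusted p = 0.266), and the correction for GC content and length gave 0.03 (edgeR adjusted p = 0.52). The longest transcript of TP63 is 42.5% GC. Library log2 CPM, relative to the other libraries, correlated with GC content across 15098 genes between −0.127 and 0.099 at SPARC 5 and between −0.012 and 0.27 in control. The authors' deposited table gave 0.09 for TP63 at SPARC 5 (0.04 to 0.13; adjusted p = 0.00474). Counts are per gene, so the TA and delta N forms of p63 are not separated.

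TP63 was the 1 gene called at SPARC 5 with a window in the RefSeq promoter table (GRCh38.p14), which held 7 members in 21 windows of 250 bases before to 50 bases after an annotated start. Its window and both windows of KLF5 are shown because these genes differed among the groups. The TP63 window lies at the upstream end of the annotated gene. Counts per gene do not show which start these cells used, so the window may not be the promoter behind the TP63 counts. Capitals mark motif matches on either strand. The motifs searched were GGGCGG (a GC box), TGACTCA (AP-1), GGAATG (TEAD), CAGAC (SMAD) and CACGTG (an E-box), and none of the matches printed overlaps another.
TP63 chr3:189631139-189631438, plus strand: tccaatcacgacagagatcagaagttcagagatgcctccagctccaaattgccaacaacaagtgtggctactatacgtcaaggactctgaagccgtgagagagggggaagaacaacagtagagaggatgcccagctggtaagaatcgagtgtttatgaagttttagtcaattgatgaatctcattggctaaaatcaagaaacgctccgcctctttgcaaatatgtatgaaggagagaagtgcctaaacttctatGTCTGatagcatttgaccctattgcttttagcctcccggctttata
KLF5 chr13:73054726-73055025, plus strand: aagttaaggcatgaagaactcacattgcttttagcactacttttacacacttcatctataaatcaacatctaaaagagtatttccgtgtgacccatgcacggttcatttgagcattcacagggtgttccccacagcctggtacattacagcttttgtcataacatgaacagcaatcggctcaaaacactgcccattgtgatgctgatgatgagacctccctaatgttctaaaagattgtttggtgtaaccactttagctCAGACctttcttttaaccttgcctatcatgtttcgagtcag
KLF5 chr13:73058755-73059054, plus strand: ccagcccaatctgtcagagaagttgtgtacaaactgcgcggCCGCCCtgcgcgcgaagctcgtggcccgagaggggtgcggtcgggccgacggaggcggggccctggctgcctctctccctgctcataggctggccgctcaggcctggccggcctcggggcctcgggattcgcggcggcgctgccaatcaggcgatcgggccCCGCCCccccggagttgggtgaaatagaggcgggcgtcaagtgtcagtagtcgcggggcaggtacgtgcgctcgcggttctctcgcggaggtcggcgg
The windows of TP63 and the first of KLF5 hold 43.7% and 40.7% GC, and the second of KLF5 holds 71.3% GC, where the median of all 35116 windows was 58.7%. The capitals are 1 CAGAC match in TP63, read on the opposite strand, 1 in the first KLF5 window, and 2 GGGCGG matches, both read on the opposite strand, in the second. CAGAC is in 45.3% of all windows and GGGCGG in 45%, so neither match sets these genes apart. No AP-1, TEAD or E-box motif, which 4.95%, 14.0% and 7.26% of all windows hold, is in these 3 windows.

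The 3 genes most like TP63 over the 20 samples were RAB5B (r = 0.906), RCAN3 (r = 0.901) and PPFIBP1 (r = 0.9), and within groups r was 0.658, 0.631 and 0.591. RAB5B, a small GTPase of early endosomes, had 97.1 ± 4.72 CPM at SPARC 5 and 82.6 ± 2.92 CPM in control.

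Among 15 genes of the p63 and p53 family and known p63 targets, 4 rose, 2 fell and 9 did not pass at SPARC 5. The median log2 fold change was 0.04 beside −0.01 for all genes, and 40% were called, beside 11.6% of all genes. SFN, the epithelial 14-3-3 sigma protein, had 904 ± 16.6 CPM at SPARC 5 and 799 ± 14.3 CPM in control (0.18 ± 0.02, edgeR adjusted p = 6.13e-11). CDKN1A, the cell cycle inhibitor p21, had 16.0 ± 1.03 CPM at SPARC 5 and 10.9 ± 0.927 CPM in control (0.56 ± 0.08, edgeR adjusted p = 1.33e-07). IGFBP3, a secreted binder of insulin-like growth factors, had 4.48 ± 1.1 CPM at SPARC 5 and 0.172 ± 0.153 CPM in control (4.69 ± 0.57, edgeR adjusted p = 9.47e-06). Its control level was near the floor of 3 counts, 0.0747 to 0.0916 CPM in control samples, so the size of this change is uncertain. KRT14, the partner of KRT5, also rose, and its reads may be shared with near-identical keratin copies. FRAS1, a basement membrane protein, had 75.3 ± 0.672 CPM at SPARC 5 and 84.1 ± 6.47 CPM in control (−0.16 ± 0.04, edgeR adjusted p = 0.00102). The genes of this list did not move in one direction. They were not split by whether p63 raises or lowers them, so these counts and median do not measure p63 activity.

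KLF5 (ENSG00000102554, chromosome 13, 73054976 to 73077542, plus strand) differed among the 4 groups without a dose that passed against control. Control samples had 117, 105, 110.0, 109 and 120.0 CPM, SPARC 0.05 samples 107, 106, 104, 109 and 97.6 CPM, SPARC 0.5 samples 108, 106, 102, 101 and 110.0 CPM, and SPARC 5 samples 116, 112, 107, 112 and 111 CPM. SPARC 0.05 and SPARC 0.5 were the low groups and SPARC 5 lay within the control range. The test of any difference among the 4 groups called KLF5 (edgeR adjusted p = 0.0236). It called 4 members, SOX9, NGFR, TP63 and KLF5, where 11% of all genes were called, and 2, SOX9 and NGFR, without control replicate 1 or SPARC 5 replicate 1. The log2 fold change of KLF5 was −0.10 at SPARC 0.05 (95% interval −0.17 to −0.04; edgeR adjusted p = 0.206), −0.09 at SPARC 0.5 (−0.16 to −0.03; edgeR adjusted p = 0.131) and −0.01 at SPARC 5 (−0.07 to 0.06; edgeR adjusted p = 0.932). At SPARC 0.5 it passed with library sizes alone (−0.12, edgeR adjusted p = 0.0345) and with the GC and length correction (−0.11, edgeR adjusted p = 0.045).

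MEIS1 (ENSG00000143995, chromosome 2, 66433452 to 66573869, plus strand), a TALE homeodomain cofactor, had 27.3, 28.6, 31.3, 28.6 and 26.7 CPM at SPARC 5, against 31.6, 30.4, 30.8, 29.3 and 29.1 CPM in control. At SPARC 5, 4 of 5 samples were below every control and replicate 3 was inside the control range. The log2 fold change was −0.09 (95% interval −0.20 to 0.02; edgeR adjusted p = 0.369), and with the GC and length correction it was −0.16 and passed (edgeR adjusted p = 0.0451). Of 6 tested genes among the MEIS and PBX cofactors, 2 rose, 1 fell and 3 did not pass, with a median of 0.11. Those called were 50% of the 6, beside 11.6% of all genes. MEIS2 fell, with 15.8 ± 0.974 CPM at SPARC 5 and 18.9 ± 1.32 CPM in control (−0.25 ± 0.07, edgeR adjusted p = 0.00636). PBX3 rose, with 32.3 ± 1.43 CPM at SPARC 5 and 28.4 ± 1.58 CPM in control (0.19 ± 0.06, edgeR adjusted p = 0.0127), and so did MEIS3 (0.51 ± 0.16, edgeR adjusted p = 0.0198). The PBX3 call was lost with library sizes alone, with the GC and length correction, and without control replicate 1 or SPARC 5 replicate 1. The MEIS3 call was lost with no filter on low counts, without control replicate 2 or 4, and without SPARC 5 replicate 1.

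PAX6 (ENSG00000007372, chromosome 11, 31784779 to 31818062, minus strand) was low and level. At SPARC 5 it had 7.41, 7.14, 8.99, 7.3 and 7.41 CPM, against 6.32, 8.31, 8.12, 8.55 and 7.0 CPM in control, and the groups overlapped. The mean was 7.65 ± 0.756 CPM at SPARC 5 and 7.66 ± 0.954 CPM in control (SD, n = 5 each). The 95% interval of its log2 fold change, −0.21 to 0.21, holds differences of either sign. Of the exon bases of PAX6, 25.2% are also exon of ELP4 on the opposite strand, which had between 396 and 777 counts per sample. How strand was treated in the counting is not known, so reads of the pair may not be separated. Of the other PAX genes, 4 were tested and none passed at SPARC 5 (edgeR adjusted p of 0.217 or above). PAX9 was the most abundant, with 28.5 ± 1.48 CPM at SPARC 5 and 30.8 ± 2.06 CPM in control.

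BMI1 (ENSG00000168283, chromosome 10, 22321211 to 22331484, plus strand), a subunit of Polycomb repressive complex 1, had 23.2, 22.1, 25.5, 23.3 and 22.9 CPM at SPARC 5, against 20.9, 22.3, 20.4, 19.8 and 25.0 CPM in control. All 5 SPARC 5 samples were above the control mean, but control replicate 5 was above 4 of them. On the log2 scale the difference was 0.11 (95% interval −0.02 to 0.24; edgeR adjusted p = 0.303). The read-through gene COMMD3-BMI1 shares 23.3% of BMI1's exon bases on the same strand and had no counts. How reads in shared exons were assigned is not known, so BMI1 may be undercounted, and reads of near-identical BMI1 copies may also be split. Of the 15 other genes of the complex, 14 did not pass at SPARC 5, and 6.67% were called, beside 11.6% of all genes. CBX8, a chromodomain subunit, fell, with 8.82 ± 0.766 CPM at SPARC 5 and 10.5 ± 0.65 CPM in control (−0.26 ± 0.09, edgeR adjusted p = 0.0447), and CBX8 kept its call in 19 of 31 alternatives.

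FOXC1 (ENSG00000054598, chromosome 6, 1609972 to 1613897, plus strand), a forkhead factor of eye development, had 19.7, 22.1, 20.4, 21.1 and 20.1 CPM at SPARC 5, against 18.7, 21.1, 22.4, 19.0 and 19.3 CPM in control. Every SPARC 5 sample lay inside the control range. Its log2 fold change was 0.04 (95% interval −0.10 to 0.17; edgeR adjusted p = 0.811).

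The transporters were barely present. ABCG2 (ENSG00000118777, chromosome 4, 88090264 to 88231322, minus strand), the efflux pump behind the side population of limbal cells, had 1.92, 1.22, 0.86, 1.1 and 1.5 CPM at SPARC 5, against 0.919, 1.06, 0.911, 1.15 and 1.57 CPM in control. These values rest on 28 to 72 counts per sample, and SPARC 5 samples lay on both sides of the control range. A log2 fold change of 0.24 had an interval of −0.28 to 0.75, so a change of this size could not be told from none with these counts, spread and number of samples (edgeR adjusted p = 0.671). ABCB5 (ENSG00000004846, chromosome 7, 20615207 to 20777038, plus strand), a transporter that marks limbal stem cells, was not detected. Its 0 counts allow a level of up to 0.0599 to 0.0939 CPM in a single sample (3 counts, counting error only). Over all 752828396 counts they allow up to 0.00398 CPM. Of the other multidrug transporters, 8 of 9 were tested and 1 passed at SPARC 5, or 12.5% beside 11.6% of all genes. ABCC3, an organic anion exporter, fell, with 27.1 ± 3.07 CPM at SPARC 5 and 34.3 ± 3.23 CPM in control (−0.34 ± 0.06, edgeR adjusted p = 5.02e-06).

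**Figure D3:**
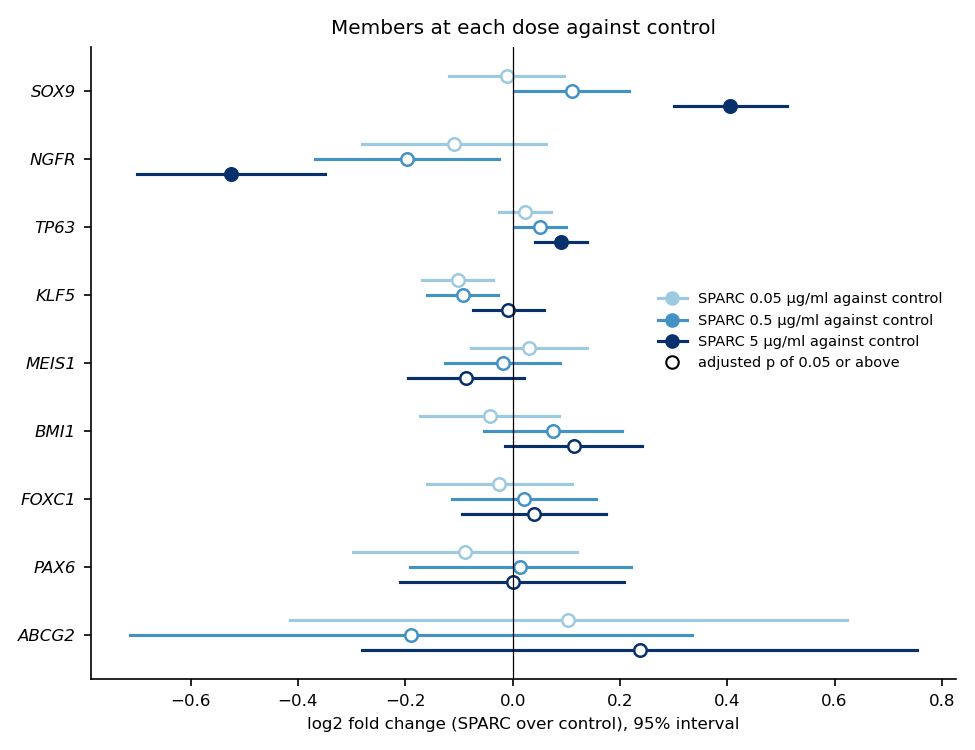
Log2 fold change (SPARC over control, horizontal axis) of the 9 tested genes (vertical axis) at each of 3 doses, with 95% intervals; filled points have an edgeR adjusted p under 0.05. The filled points are SOX9 (0.41), TP63 (0.09) and NGFR (−0.52), all at SPARC 5, and the widest intervals are those of ABCG2.

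At the lower doses no member passed. At SPARC 0.05 the edgeR test called 0 of 9 members, where 0.266% of all genes were called. An unadjusted p under 0.05 was found for 1 member, KLF5, and for 2095 of all 22938 genes. At SPARC 0.5 the edgeR test called 0 of 9, where 2.25% of all genes were called. There 4 members, TP63, NGFR, KLF5 and SOX9, had an unadjusted p under 0.05, as did 3168 of all 22938 genes. DESeq2 and limma voom called 0 members at either dose. DESeq2 gave no adjusted p for PAX6, ABCG2, NGFR and FOXC1 at SPARC 0.05, or for ABCG2 at SPARC 0.5. Of genes with an adjusted p, DESeq2 called 174 of 7536 at SPARC 0.05 and 708 of 14562 at SPARC 0.5. For limma voom these were 67 and 523 of 22938. At SPARC 0.5 the log2 fold changes were 0.11 for SOX9 (95% interval 0.00 to 0.22), −0.20 for NGFR (−0.37 to −0.03) and 0.05 for TP63 (0.00 to 0.10), each of the sign seen at SPARC 5. The 3 comparisons with control share the same control samples.

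Between doses, SPARC 5 differed from SPARC 0.5 in 2 members, SOX9 and NGFR, where 4.8% of all genes were called. Against SPARC 0.05 the same 2 genes were called, where 8.28% of all genes were called, and TP63 (0.07, edgeR adjusted p = 0.0693) and KLF5 (0.09, edgeR adjusted p = 0.0638) missed. SPARC 0.5 against SPARC 0.05 gave 0 called members by edgeR, DESeq2 and limma voom, where edgeR called 0.179% of all genes. DESeq2 gave an adjusted p to 11049 genes there and called 81, and limma voom called 55 of 22938. By edgeR, 1 member, SOX9, had an unadjusted p under 0.05, as did 1690 of all 22938 genes. The trend per dose step, each dose taken as 1 step, called SOX9 (0.13 ± 0.02 per step, edgeR adjusted p = 5.65e-10), NGFR (−0.17 ± 0.03, edgeR adjusted p = 5.23e-06) and TP63 (0.03 ± 0.01, edgeR adjusted p = 0.00311). These 3 members stand beside 12.1% of all genes with a called trend.

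Among the limbal and basal epithelial markers that were called at SPARC 5, more rose than fell. Of 20 tested limbal and basal epithelial markers other than the members, 7 rose, 1 fell and 12 did not pass. The median log2 fold change was 0.01, and 40% were called, beside 11.6% of all genes. The list was chosen with earlier results of these data known. ITGB4, the hemidesmosome integrin subunit, had 1470 ± 44.8 CPM at SPARC 5 and 1220 ± 17.3 CPM in control (0.27 ± 0.02, edgeR adjusted p = 1.61e-18). COL17A1, the hemidesmosome collagen, had 1620 ± 69.1 CPM at SPARC 5 and 1280 ± 56.3 CPM in control (0.35 ± 0.03, edgeR adjusted p = 7.45e-08). ITGB1 (0.21 ± 0.02) and CD44 (0.21 ± 0.02), the hyaluronan receptor, also rose, and these 2 had passed at SPARC 0.5 as well. The 1 that fell was KRT15 (−1.11 ± 0.14). Of the markers of the limbus, KRT19 did not pass (−0.02, edgeR adjusted p = 0.981), and GPHA2 and CXCL14 had too few counts to test.

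Of 13 tested genes of corneal epithelial differentiation, 3 fell, none rose and 10 did not pass. Those called were 23.1% of the 13, beside 11.6% of all genes. ALDH3A1, the corneal crystallin-like aldehyde dehydrogenase, had 3.82 ± 0.595 CPM at SPARC 5 and 6.89 ± 0.626 CPM in control (−0.85 ± 0.12, edgeR adjusted p = 3.02e-08). CLU, the chaperone clusterin, had 10.9 ± 1.05 CPM at SPARC 5 and 15.5 ± 2.62 CPM in control (−0.52 ± 0.08, edgeR adjusted p = 1.41e-06). TKT, the pentose phosphate enzyme transketolase, changed by −0.12 ± 0.02 (edgeR adjusted p = 3.55e-05). The median of the 13 was 0.01.

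Of 30 tested transcription factors of corneal and surface epithelium other than the members, 4 rose, 4 fell and 22 did not pass. The median was −0.09, and 26.7% were called, beside 11.6% of all genes. KLF6 (0.40 ± 0.03, edgeR adjusted p = 1.31e-18), RUNX1 (0.21 ± 0.03, edgeR adjusted p = 2.75e-07), KLF4 (0.25 ± 0.06, edgeR adjusted p = 0.00339) and ID3 (0.22 ± 0.06, edgeR adjusted p = 0.00946) rose. The ID3 call was lost with library sizes alone and without SPARC 5 replicate 4. FOSL2, a subunit of AP-1, had 140.0 ± 4.53 CPM at SPARC 5 and 163 ± 3.42 CPM in control (−0.21 ± 0.03, edgeR adjusted p = 7.8e-08). SOX15 (−0.25 ± 0.06), TFAP2A (−0.13 ± 0.03) and SOX2 (−0.46 ± 0.12) also fell, so SOX factors were called in both directions.

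Markers of neighbouring epithelia moved through 1 gene each. Of 6 tested conjunctival and goblet markers, KRT7 alone rose, with 1100 ± 18.4 CPM at SPARC 5 and 622 ± 39.1 CPM in control (0.82 ± 0.03, edgeR adjusted p = 3.35e-26). The 8 markers summed to between 1080 and 1120 CPM at SPARC 5 and between 562 and 655 CPM in control, nearly all of it KRT7. KRT13 and KRT4 stayed at most 1.35 and 1.24 CPM, MUC5AC at most 0.166 CPM and TFF1 at 0. Of 4 tested epidermal markers, FLG, the filaggrin precursor, fell, with 0.323 ± 0.119 CPM at SPARC 5 and 1.05 ± 0.267 CPM in control (−1.71 ± 0.34, edgeR adjusted p = 7.01e-05). The part of these markers in the results for SOX9, NGFR and TP63 was not tested.

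**Figure D4:**
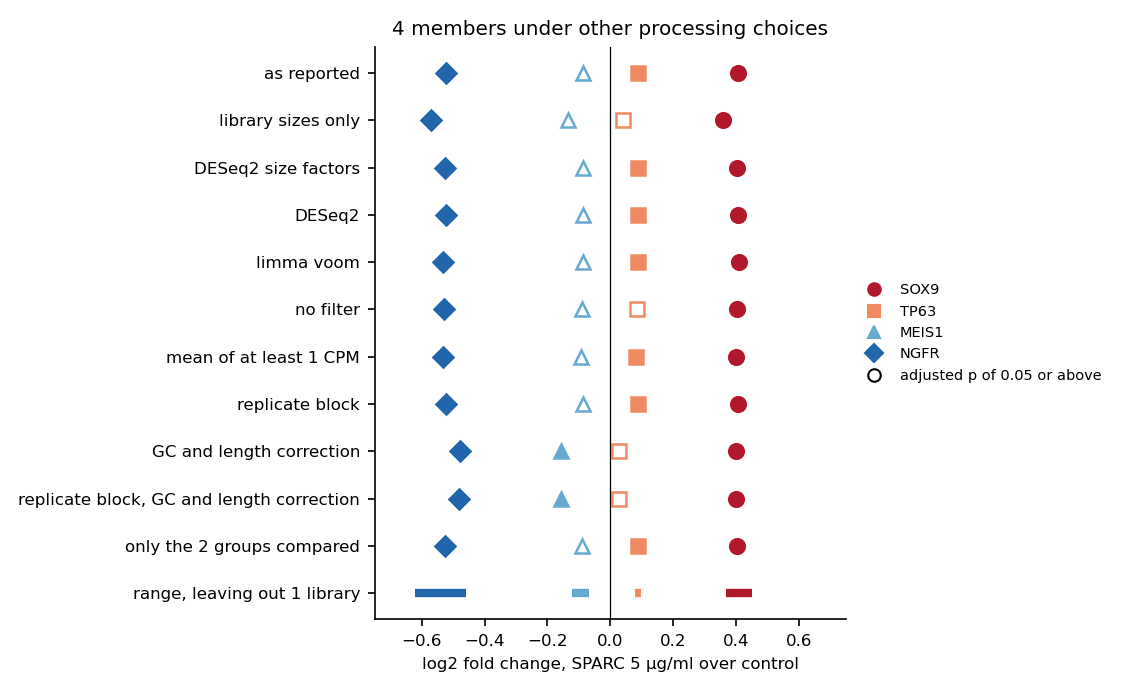
Log2 fold change at SPARC 5 over control (horizontal axis) of SOX9, TP63, MEIS1 and NGFR as reported and under 10 other processing choices (vertical axis), filled where the adjusted p was under 0.05; the lowest line spans the values with 1 library left out. SOX9 stayed between 0.36 and 0.45 and NGFR between −0.62 and −0.46, while TP63 (0.03 to 0.10) and MEIS1 (−0.16 to −0.07) crossed the threshold under some choices.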

How the data were processed

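The deposited table holds raw read counts per Ensembl gene, made by the authors. The build was GRCh38, and featureCounts 2.0.3 of Subread, the aligner STAR 2.7.9a, edgeR, limma, bcl2fastq and Salmon 1.5.2 are listed, per the submitters' processing notes. No annotation release or strand setting is given in the sources used here. Per the file headers, the authors' 3 comparison tables hold log2 fold changes with intervals and adjusted p-values for 16121 genes.

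Of 60871 entries, repeated identifiers (168, with equal counts) were kept once. Genes passing filterByExpr of edgeR 4.0.16 (minimum count 10; R 4.3.3) were fitted in 1 model of 4 group means over all 20 samples with TMM factors and robust quasi-likelihood. P-values were adjusted over 22938 genes. The common biological coefficient of variation was 6.68%. Chi-square per gene between replicates of a group was between 4.09 and 9.55 over 40 pairs, above counting noise, so no 2 libraries were counted as 1. Log2 CPM used a prior count of 2. Standard errors were recovered from the F statistic. Exon lengths, GC content and positions came from GENCODE 29 on GRCh38, which may differ from the authors' annotation. The alternatives used DESeq2 1.42.0 and limma 3.58.1 among others. The scripts were tested on simulated data.

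The members and gene lists were chosen with earlier results of these data known. Genes named are the members, up to 4 genes of each list with the smallest p at SPARC 5, counts of 5 or fewer in full, exon-sharing neighbours, and the 3 genes most like each called member. Cell type markers and untested list genes given only by their level were added beside the results they touch. Some genes of the lists are counted but not reported here by name.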

Additional observations from a re-analysis of the deposited data

Results flagged for a closer look

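In 2 of the 36 groups of 5 samples tested, 1 sample stood apart from the other 4. Chance alone flags about 1 in 20 groups. PAX6 had 8.99 CPM in SPARC 5 replicate 3, the highest of that group, with a gap of 0.856 of the group's range to the nearest sample. BMI1 had 24.3 CPM in SPARC 0.5 replicate 1, with a gap of 0.772 of the range.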

How the results depend on the processing

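SOX9 and NGFR kept their direction and their call at SPARC 5 in all 31 alternatives, with log2 fold changes of 0.36 to 0.45 and −0.62 to −0.46. TP63 kept its call in 27 of 31 and lost it in 4: library sizes alone (0.04), no filter on low counts (0.09, edgeR adjusted p = 0.0592), and the GC and length correction without (0.03) and with the replicate block (0.03, edgeR adjusted p = 0.512). Under the GC and length correction MEIS1 passed in place of TP63.

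Members called at SPARC 0.5 were 1, KLF5, with library sizes alone, with the GC and length correction, and with that correction and the replicate block, against 0 as reported. With 1 library left out, members called were 1 to 2 for SPARC 5 against SPARC 0.5, 2 to 4 for any difference among the 4 groups, 3 for SPARC 5 against control, 2 to 3 for SPARC 5 against SPARC 0.05 and 3 to 4 for the trend. Over all its 30 alternatives the trend called 2 to 4 members, so the 2 came from a choice other than leaving out 1 library. With no filter, any difference called 2. The fit of only the 2 groups compared gives no trend and no test of any difference.

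Same-numbered replicates did not deviate together (mean r of 0.002 over 30 pairs, at most 0.045), so the numbers were not taken as pairs. The replicate block left the calls at SPARC 5 at 3 members and moved the calls over all genes to 2750, against 2665 without it. Leaving out SPARC 5 replicates 2 and 5 together was chosen after seeing the data. ABCG2 rests on 28 to 72 counts per sample and ABCB5 on none.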

Other observations

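Of the listed genes that overlap or neighbour the members, 5 were tested and none passed at SPARC 5, with edgeR adjusted p of 0.476 or above. ELP4, which shares exon sequence with PAX6, had 14.9 ± 0.654 CPM at SPARC 5 and 14.1 ± 1.78 CPM in control (SD, n = 5 each; log2 fold change 0.09, edgeR adjusted p = 0.593). SOX9-AS1, read from the strand opposite SOX9, had 0.126 ± 0.0776 CPM at SPARC 5 and 0.241 ± 0.11 CPM in control, a log2 fold change of −0.92 that did not pass (edgeR adjusted p = 0.476). MEIS1-AS2, which shares 4.0% of the exon bases of MEIS1, had 0.91 ± 0.455 CPM at SPARC 5 and 0.744 ± 0.384 CPM in control (edgeR adjusted p = 0.659). COMMD3, upstream of BMI1, had 3.44 ± 0.745 CPM at SPARC 5 and 3.26 ± 0.423 CPM in control (edgeR adjusted p = 0.836).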
